A study of Danio rerio with 12 samples.

Results

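Zebrafish larvae exposed to bepridil at 1295 ng/mL were compared with larvae exposed at 750 ng/mL, the step between the 2 highest doses of the study. The comparison holds the 3 libraries labelled 1295 ng/mL and the 3 labelled 750 ng/mL, 6 of the 12 libraries of the study. The libraries were taken by their dose labels, and all genes with enough counts were tested. The comparison itself was chosen with earlier results of these data known. The other libraries, 3 at 250 ng/mL and 3 at 0 ng/mL, entered the estimate of the spread between replicates. All groups shared the AB strain, an age of 120 hours after fertilization and the pooling of 15 whole larvae per sample, and they differed in the dose of bepridil. The labels call the material embryo. The sources used here give neither the length of exposure nor the solvent. Whether the 3 pools of a dose are separate clutches is not labelled, so every p-value rests on a spread between pools that may be technical.

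Bepridil blocks voltage-gated calcium channels and, less selectively, sodium and potassium channels, and it has been used against angina and arrhythmia. These channels shape the beat of the heart, the contraction of muscle and the release of transmitter at synapses, including those of photoreceptors. At the age sampled, a larva has largely used up its yolk, its liver, gut, pancreas and retina work, and it begins to feed. RNA from whole larvae therefore mixes all tissues, and skeletal muscle, epidermis and liver contribute many of the most abundant messages.

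The libraries held between 17844433 and 18284169 counts at 1295 ng/mL and between 16103262 and 16535153 at 750 ng/mL. The share of counts in the top 20 genes was 16.5% to 18.3% at 1295 ng/mL and 12.9% to 13.3% at 750 ng/mL, and the factors used to scale libraries (trimmed mean of M values, TMM) were 0.8308 to 0.9055 at 1295 ng/mL and 1.011 to 1.05 at 750 ng/mL. Levels are therefore given as CPM, the counts of a gene relative to the scaled library total, and directions that change under another scaling are named. On the first principal component, with 57.9% of the variance, the 1295 ng/mL libraries lay at -64.43, -83.63 and -66.42 and the 750 ng/mL libraries at 33.43, 34.52 and 18.24. Replicate 2 at 1295 ng/mL lay farther out than replicates 1 and 3. On the second component, with 10.9% of the variance, replicate 3 at 750 ng/mL stood apart, at -39.55 against -7.309 and -2.085 for replicates 1 and 2, and without it 11452 genes were called in place of 11239. For replicate 2 at 1295 ng/mL, CPM was at most 0.5 times that of replicates 1 and 3 in 215 of the 6185 genes called lower. Among the 5054 genes called higher, this held in 34. Of the 33 markers listed for the tissues of a larva, 31 were found by name and cryaa, at 0 in 1 library for the reason given next, was the only one of them without counts in every library.

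Replicate 3 at 1295 ng/mL carried a fault in the deposited table. In 5 runs of neighbouring rows, 74 rows in all, its counts stood 1 row away from the gene they belong to when read against replicates 1 and 2. Of these genes 61 were among those tested and 25 were in the lists used here. The lens gene cryba1a held 4, 10 and 5796 counts in replicates 1, 2 and 3 at 1295 ng/mL, and cryaa, a lens chaperone, held 303, 340 and 0. Moving the counts of the crystallin run by 1 row brought the median absolute log2 difference from the other libraries down to 0.155, against 2.157 as deposited. Displaced rows are left out of the list counts given here, displaced genes are named only as examples of the fault, and the results of affected lists are given with and without them. The threshold of the search was chosen after seeing the data, and shorter displacements may remain. Of the 12 libraries searched, 1 held such runs.

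**Figure D1:**
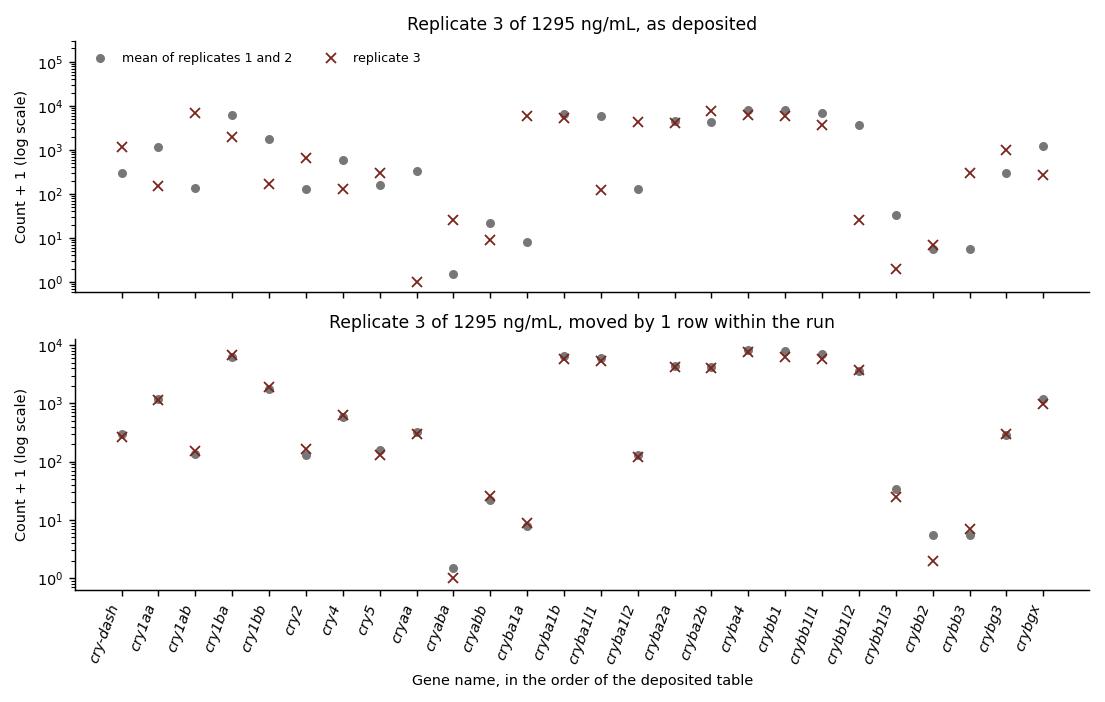
Counts of the 26 neighbouring rows of the crystallin run (log scale, count plus 1), for replicate 3 at 1295 ng/mL (crosses) and the mean of replicates 1 and 2 at 1295 ng/mL (points). As deposited (upper panel) the crosses miss the points, and after a move by 1 row (lower panel) they lie on or near them.

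Of 25099 listed genes 21581 were tested, and 11239 of them (52.1%) were called at an adjusted p under 0.05 (edgeR quasi-likelihood test, p-values adjusted by Benjamini and Hochberg). The calls were 5054 genes higher at 1295 ng/mL (23.4% of those tested) and 6185 lower (28.7%), with a median log2 fold change of -0.05 over all tested genes. The falls were larger than the rises. At 2-fold or more, 3010 genes (13.9%) were called, 480 higher (2.22%) and 2530 lower (11.7%). At 4-fold or more there were 54 higher and 306 lower, and at 8-fold or more 11 and 33. All 3 libraries at 1295 ng/mL lay above all 3 at 750 ng/mL in 28.4% of tested genes and below them in 31%. The balance of directions rested on the scaling. With total counts alone the median of all genes moved to -0.288, and 2471 genes were called higher and 8959 lower, so that 21.6% of calls were higher in place of 45%. With relative log expression factors 49.5% of calls were higher. The counts of each list are therefore read beside these shares and the median of all genes. Sums over a list are dominated by its most abundant genes.

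**Figure D2:**
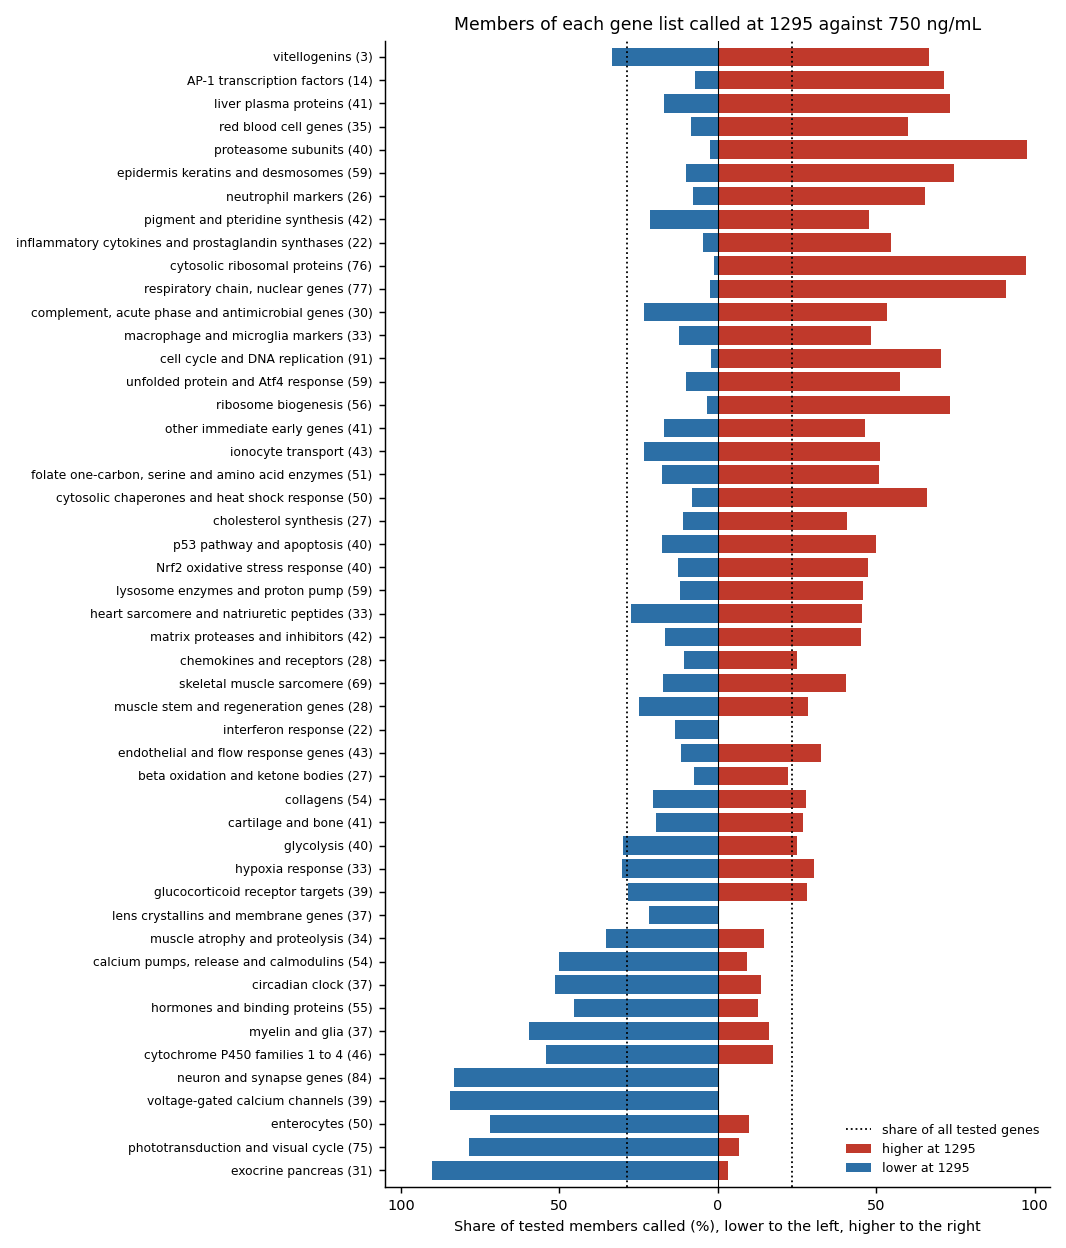
Share of tested members (number in brackets) of each of 49 gene lists called higher (red, to the right) or lower (blue, to the left) at 1295 against 750 ng/mL, with displaced rows left out, sorted by median log2 fold change. Dotted lines mark the 23.4% higher and 28.7% lower of all tested genes. Proteasome, ribosomal and respiratory chain genes reach far past the right line, and pancreas, enterocyte, photoreceptor, neuron and calcium channel genes past the left line.

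Among the 12 with the largest rise were the hatching enzyme gene he1a, the globin genes hbbe3 and hbae5, the cytokine genes il11a and lepb, the yolk protein gene vtg7, the cytochrome P450 genes cyp2aa8 and cyp2aa9, and gch2, which starts pteridine synthesis. Among the 12 with the largest fall were 6 genes of gut or digestion. These were clca1 (a chloride channel regulator of mucous cells in mammals), the meprin gene mep1b, the alkaline phosphatase gene alp3, the chitinase gene chia.1, the pancreatic gene cuzd1.2 and tmprss15 (enteropeptidase, which activates trypsinogen). The genes were chosen by the size of the change, so the sizes are a description. By change in mean CPM, the largest rise was that of actc1b, an actin gene of muscle, with 29117, 36499 and 30893 CPM at 1295 ng/mL against 16326, 18068 and 18239 CPM at 750 ng/mL. The largest fall in mean CPM was that of the opsin gene opn1sw1, whose values stand with the retina.

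The hatching enzyme gene he1a stood at 36.3, 6.45 and 40.17 CPM at 1295 ng/mL and at 0.115, 0.299 and 0.183 CPM at 750 ng/mL. Its log2 fold change was 7.07 (SE 0.83, adjusted p = 9.5e-06, edgeR). Replicate 2 was the lowest of the 1295 ng/mL libraries, and the groups did not overlap. The same library was lowest for lepb, one of the leptin genes of the zebrafish, with 7.62, 0.329 and 7.17 CPM at 1295 ng/mL against 0.173, 0.0599 and 0.304 CPM at 750 ng/mL. For lepb the call was lost with limma-voom (adjusted p = 0.0783). In il11a, an interleukin of the IL-6 family, replicate 2 was again the lowest, with 5.88, 1.25 and 5.93 CPM at 1295 ng/mL against 0.461, 0.24 and 0.426 CPM at 750 ng/mL. The enzyme gene dao.1, a D-amino acid oxidase, behaved evenly across replicates. It stood at 18.8, 19.8 and 18.5 CPM at 1295 ng/mL against 1.27, 1.5 and 0.974 CPM at 750 ng/mL. The change, 3.92 on the log2 scale, had an SE of 0.31 (adjusted p = 4.92e-07, edgeR).

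On the side of the falls, clca1 stood at 0.248, 0.724 and 0.247 CPM at 1295 ng/mL against 8.64, 10.8 and 14.9 CPM at 750 ng/mL (log2 fold change -4.81, SE 0.45, adjusted p = 1.29e-06, edgeR). The meprin gene mep1b, a brush border protease, stood at 0.186, 0.856 and 0.124 CPM against 6.68, 8.92 and 11.4 CPM (log2 fold change -4.54, SE 0.43). In both genes replicate 2 was the highest library at 1295 ng/mL and still lay far below all 750 ng/mL libraries. The keratin gene krt95 had no count at 1295 ng/mL, against a mean of 1.03 CPM at 750 ng/mL, so no fold is given.

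**Figure D3:**
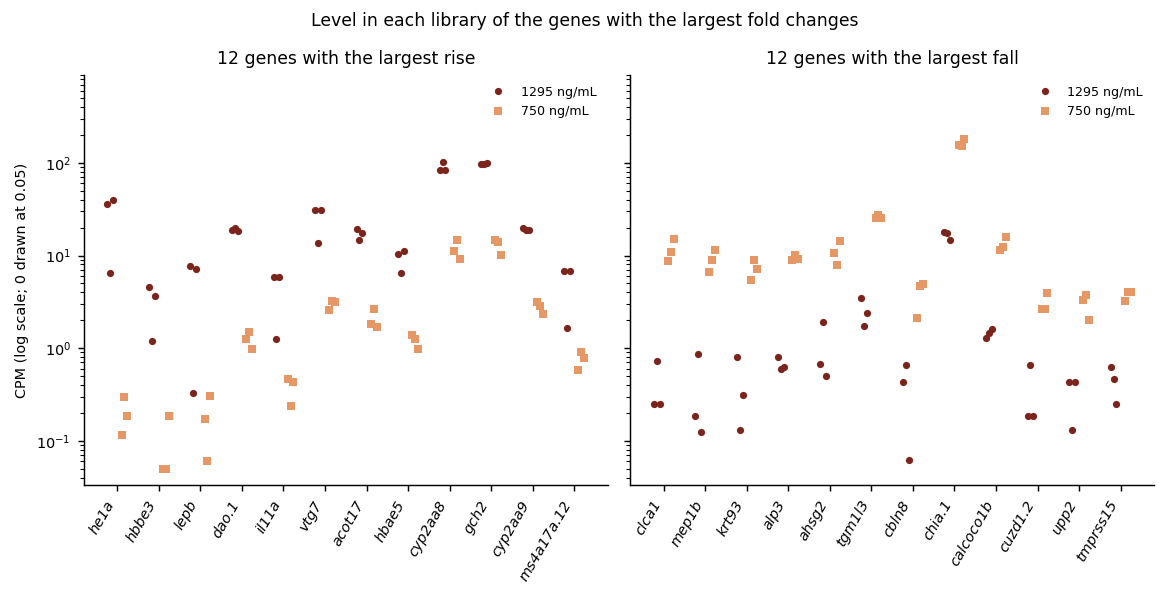
Level in CPM (log scale, 0 drawn at 0.05) of the 12 genes with the largest rise (left) and the 12 with the largest fall (right), with the 3 libraries at 1295 ng/mL (dark circles) left of the 3 at 750 ng/mL (light squares) for each gene, each in the order of replicates 1, 2 and 3. The groups do not overlap in any of these genes, which the choice of genes required, and replicate 2 at 1295 ng/mL, the middle circle, lies apart from the other circles in he1a, hbbe3, lepb, il11a and ms4a17a.12.

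Digestive enzymes of the exocrine pancreas were lower at 1295 ng/mL. Of 31 tested genes of that list 28 were lower and 1 was higher, with a median log2 fold change of -1.86. Their summed level was 2442, 4926 and 2550 CPM at 1295 ng/mL and 11170, 11350 and 12740 CPM at 750 ng/mL. Replicate 2 was the highest of the 1295 ng/mL libraries, and without it the median was -2.225. In RNA of whole larvae, fewer cells of a type and less RNA per cell cannot be told apart. The chymotrypsinogen gene ctrb1 stood at 358, 621 and 382 CPM at 1295 ng/mL against 1327, 1422 and 1607 CPM at 750 ng/mL (log2 fold change -1.68, SE 0.22). The carboxypeptidase gene cpa1 stood at 26.7, 57.4 and 29.6 CPM against 188, 202 and 212 CPM (log2 fold change -2.41, SE 0.28). The amylase gene amy2a fell by 2.59 on the log2 scale and the elastase gene ela2 by 2.09. The genes ptf1a and rbpjl encode transcription factors of the acinar cell and were not called, with log2 fold changes of -0.10 and -0.46. The gene called higher, zgc:66313, which RefSeq lists as amy2al1, averaged 2.70 CPM at 1295 ng/mL and 1.15 CPM at 750 ng/mL. Several enzymes of this list have near-identical copies, and how the counting shared reads among them is not stated.

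Most genes of the absorbing cells of the gut moved the same way, but the lipoprotein genes among them did not. Of 50 enterocyte genes 36 were lower and 5 were higher (median -1.25). All 3 chitinase genes were lower, with chia.1 at 17.9, 17.4 and 14.6 CPM at 1295 ng/mL against 156, 153 and 183 CPM at 750 ng/mL. All 5 meprin and astacin genes and 8 of 9 solute carriers were lower. The peptide transporter gene slc15a1b stood at 8.73, 9.02 and 8.03 CPM against 44.5, 45.3 and 47.0 CPM (log2 fold change -2.41, SE 0.16, adjusted p = 1.8e-07, edgeR). The glucose transporter gene slc5a1 fell by 2.02 on the log2 scale, and the aminopeptidase gene anpepa by 2.18. In these transporters and peptidases every 1295 ng/mL library lay below every 750 ng/mL library. Of 6 apolipoprotein genes of the list 4 were higher and 2 were not called. Here apoba averaged 1060.3 CPM at 1295 ng/mL against 458 CPM at 750 ng/mL, and apobb.1 averaged 6956 CPM at 1295 ng/mL against 4601 CPM at 750 ng/mL. Both encode the large protein of lipoprotein particles, which the yolk syncytial layer and liver also make. With these abundant genes included, the summed level of the list was 11870, 11120 and 11960 CPM at 1295 ng/mL and 10970, 10830 and 10870 CPM at 750 ng/mL.

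Cytochrome P450 genes of families 1 to 4 were divided by subfamily. These enzymes oxidize drugs, steroids and fatty acids in liver and gut. Of 46 genes 25 were lower and 8 were higher (median -0.64). All 5 cyp2p genes, 3 of 5 cyp3 genes and 4 of 7 cyp2k genes were lower and none of these was higher. The gene cyp3a65, the CYP3A form of the larval gut, stood at 29.7, 33.2 and 32.6 CPM at 1295 ng/mL against 204, 220 and 254 CPM at 750 ng/mL (log2 fold change -2.83, SE 0.19). By contrast 6 of 9 cyp2aa genes were higher and 2 were lower, with cyp2aa8 at 83.3, 101 and 84.2 CPM against 11.2, 14.8 and 9.13 CPM. The cyp2aa genes are close copies of each other, so their single values are uncertain. The xenobiotic sensor target cyp1a was not called (42.6 CPM at 1295 ng/mL, 44.6 CPM at 750 ng/mL).

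Messages for plasma proteins of the liver were mostly higher. Of 41 tested genes 30 were higher and 7 were lower (median 0.89), and their summed level was 34460, 38100 and 34990 CPM at 1295 ng/mL against 15210, 16270 and 16710 CPM at 750 ng/mL. Most of this sum came from 6 apolipoproteins, with 23430, 25040 and 24120 CPM at 1295 ng/mL against 8879, 9657 and 9790 CPM at 750 ng/mL. Among them apoeb and apoc1 are widely expressed, so the sum does not stand for the liver alone. The apolipoprotein gene apoa1a, the main protein of high density lipoprotein, stood at 7406, 8320 and 7742 CPM at 1295 ng/mL against 2001, 2508 and 2321 CPM at 750 ng/mL (log2 fold change 1.78, SE 0.14, adjusted p = 4.85e-07, edgeR). All 6 apolipoproteins of the list and all 3 fibrinogen chains were higher, with fga at 346, 247 and 338 CPM against 96.9, 98.3 and 107 CPM. Terminal complement genes, whose products form the membrane attack complex, were higher in 6 of 7 cases. The 7 genes that were lower include the liver marker fabp10a (113 CPM at 1295 ng/mL against 289 CPM at 750 ng/mL), the vitamin D binding protein gene gc, the transthyretin gene ttr and the fetuin gene ahsg2. For gc the 1295 ng/mL libraries stood at 22.2, 29.8 and 23.1 CPM and the 750 ng/mL libraries at 95.4, 99.0 and 109 CPM. The groups did not overlap for apoa1a, fga, fabp10a or gc. Of 3 tested vitellogenin genes, vtg7 stood at 31.1, 13.6 and 31.3 CPM against 2.59, 3.23 and 3.17 CPM. Vitellogenins are yolk precursors that estrogen raises in adult females. The gene vtg1 was higher at a low level (means of 1.70 CPM at 1295 ng/mL and 0.377 CPM at 750 ng/mL). The gene vtg3 was called lower (log2 fold change -1.33) at under 1 CPM in every library of both groups, and that call was lost under some alternatives.

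Genes of photoreceptors were lower as a set. Of 75 genes of phototransduction and the visual cycle 59 were lower and 5 were higher (median -1.47). Their summed level was 3599, 2404 and 3693 CPM at 1295 ng/mL and 8389, 7752 and 9898 CPM at 750 ng/mL, and replicate 2 was the lowest of all. Light is caught by opsins, passed on by transducin and turned into a fall of cyclic GMP by phosphodiesterase 6, which closes cyclic nucleotide-gated channels. Each of these steps was lower, with 7 of 8 opsins, 5 of 6 transducin subunits, 5 of 6 phosphodiesterase subunits and 4 of 4 channel subunits called and none higher. The ultraviolet cone opsin gene opn1sw1 stood at 724, 341 and 764 CPM at 1295 ng/mL against 2441, 2019 and 2807 CPM at 750 ng/mL (log2 fold change -1.99, SE 0.25, adjusted p = 1.73e-05, edgeR). The inhibitory cone subunit gene pde6h stood at 3.47, 1.98 and 3.03 CPM against 14.6, 17.1 and 25.3 CPM. The rod transducin gene gnat1 stood at 36.5, 33.3 and 35.8 CPM against 118, 96.0 and 135 CPM. The rod opsin rho was the opsin not called, with 379 CPM at 1295 ng/mL and 543 CPM at 750 ng/mL. Of 12 opsin kinases, arrestins and recoverins, which regulate the cascade, 11 were lower.

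The transcription factor genes crx, nrl and nr2e3 were not called, with log2 fold changes of 0.58, -0.27 and -0.36. Of 14 visual cycle enzymes and carriers, which restore the light-sensing pigment, 7 were lower and 4 were higher (median -0.40). Their sum was 220.5, 232.4 and 229.8 CPM at 1295 ng/mL and 273.7, 283.0 and 301.7 CPM at 750 ng/mL, with no overlap. The vitamin A receptor gene stra6 of the pigment epithelium averaged 44.6 CPM at 1295 ng/mL against 22.3 CPM at 750 ng/mL. The lens, the other large tissue of the eye, showed a smaller change. Without displaced rows 8 of 37 lens genes were lower and none was higher (median -0.15), and with them 10 of 52 were lower and 3 higher (median -0.16). Both shares of lower genes lay below the 28.7% of all tested genes. With total counts alone, where more of all genes were called lower, 25 of the 52 were lower and 2 higher. When 1 library was left out the number of lower lens genes, displaced rows included, ran from 5, without replicate 3 at 750 ng/mL, to 16, without replicate 2 at 1295 ng/mL. The water channel gene mipa of lens fibres stood at 26.4, 40.04 and 29.0 CPM at 1295 ng/mL against 59.9, 57.2 and 67.8 CPM at 750 ng/mL.

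Neuronal genes were lower, with few exceptions. Of 84 neuron and synapse genes 70 were lower and none was higher (median -1.01), and the sum was 3975, 3302 and 3967 CPM at 1295 ng/mL against 6933, 7235 and 7424 CPM at 750 ng/mL. By role, 8 of 9 glutamate receptors were lower (median -1.64), as were 9 of 11 genes of GABA and glycine signalling (median -1.12), 12 of 13 transmitter enzymes and carriers (median -1.04) and 13 of 17 vesicle release proteins (median -0.85). The NMDA receptor gene grin1a stood at 78.1, 56.9 and 77.6 CPM at 1295 ng/mL against 285, 275 and 284 CPM at 750 ng/mL (log2 fold change -1.99, SE 0.13, adjusted p = 1.8e-07, edgeR). The gene gad2, for the enzyme that makes GABA, stood at 61.5, 45.8 and 59.9 CPM against 165, 179 and 179 CPM. The general neuronal markers elavl3 and snap25a fell by 0.78 and 1.13 on the log2 scale. Some neuronal genes were not called, among them tubb5 (log2 fold change 0.00), syn1 (-0.04) and the pump subunit atp1a3a (-0.15).

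Genes of glia were more mixed. Of 37 genes 22 were lower and 6 were higher (median -0.53). Myelin genes were lower, with mpz at 5.82, 5.79 and 6.92 CPM at 1295 ng/mL against 19.5, 17.8 and 20.2 CPM at 750 ng/mL and mbpa at 31.9, 35.3 and 32.3 CPM against 78.6, 79.9 and 84.8 CPM. In both the groups lay far apart. The astrocyte and radial glia marker gfap fell by 0.97 on the log2 scale, while slc1a3a, a glutamate transporter of the same cells, was called higher at 0.26. The list's sum was 5901, 5229 and 5991 CPM at 1295 ng/mL against 3916, 4073 and 4173 CPM at 750 ng/mL, since apoeb, which macrophages and epidermis also express, is its most abundant member and rose by 1.33.

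Voltage-gated calcium channels, which bepridil blocks, were lower at the level of messenger RNA. Of 39 genes for voltage-gated calcium channel subunits 33 were lower and none was higher (median -1.11). All 15 pore-forming subunits were lower (median -1.47), as were all 6 alpha2-delta subunits (median -1.21) and all 7 beta subunits (median -0.94), while 5 of 11 gamma subunits were lower (median -0.76). The gene cacna1c, the L-type channel of the heart and of neurons, stood at 31.8, 18.2 and 32.1 CPM at 1295 ng/mL against 85.6, 91.0 and 84.1 CPM at 750 ng/mL (log2 fold change -1.66, SE 0.16, adjusted p = 1.75e-06, edgeR). The N-type gene cacna1ba stood at 13.4, 8.56 and 14.3 CPM against 43.2, 44.5 and 38.3 CPM. Replicate 2 was the lowest library for both. The channel of skeletal muscle fell least, with cacna1sb and cacna1sa down by 0.46 and 0.29 on the log2 scale. Of the T-type genes, cacna1ha fell by 1.47 and cacna1g by 1.11. Most of these channels are known from neurons, and 70 of 84 genes of the neuron list were lower beside them, with a median of -1.01. The parts of the neurons and of message length in the channel result were not tested.

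Genes for other proteins that move or bind calcium were mixed. Of 54 genes for pumps, release channels and calmodulins 27 were lower and 5 were higher (median -0.35). All 5 ryanodine receptor genes, the release channels of the sarcoplasmic and endoplasmic reticulum, were lower, as were 5 of 6 plasma membrane calcium pumps and 6 of 7 sodium-calcium exchangers. The pump gene atp2b3a stood at 67.6, 43.4 and 65.9 CPM at 1295 ng/mL against 134, 151 and 149 CPM at 750 ng/mL. The reticulum pumps went in several directions, with atp2a2b higher by 0.84 and atp2a1, the form of fast muscle, by 0.29, and atp2a1l lower by 0.82 on the log2 scale. Of 6 calmodulin genes 3 were lower and 3 were not called, and their sum was 2023, 2018 and 1916 CPM at 1295 ng/mL against 2073, 1912 and 2208 CPM at 750 ng/mL, so that the groups overlapped.

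Some families of skeletal muscle genes went in opposite directions and others were mixed. The families were chosen after their values were seen. Of 69 sarcomere genes 28 were higher and 12 were lower (median 0.15, which ran from -0.09 to 0.20 over the scalings tried). The giant proteins, namely both titins and nebulin, and both ryr1 release channels were lower in 5 of 5 cases. Their sum was 2769, 1994 and 2680 CPM at 1295 ng/mL against 6676, 6569 and 5812 CPM at 750 ng/mL. The gene ttn.1 stood at 984, 621 and 944 CPM against 2753, 2675 and 2442 CPM (log2 fold change -1.63, SE 0.15, adjusted p = 1.26e-06, edgeR). All 6 myosin light chains were higher, with a sum of 23410, 28650 and 24350 CPM at 1295 ng/mL against 17540, 17590 and 17790 CPM at 750 ng/mL. All 5 parvalbumins, the calcium buffers of fast fibres, and both creatine kinases were higher. Of 10 troponin genes 5 were higher, 1 was lower and 4 were not called. Among them the fast troponin T gene tnnt3a stood at 688, 777 and 619 CPM against 309, 311 and 334 CPM. Of 6 myosin heavy chain genes 3 were lower and 3 were not called. Replicate 2 at 1295 ng/mL was the highest library for the summed light chains and the lowest for the summed titins, nebulin and ryr1 genes. Titin and nebulin have some of the longest messages known. Whether message length goes with these directions, or with those of the other lists, was not tested. The call of mylpfa was lost with total counts alone (log2 fold change 0.23), and the falls of myhz1.1 and myhz2 (-0.30 and -0.38) were lost in some fits.

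Of 34 genes of muscle wasting 12 were lower, a share near that of all tested genes, and 5 were higher (median -0.19). The ubiquitin ligase gene fbxo32, known as atrogin-1, averaged 8.71 CPM at 1295 ng/mL against 25.3 CPM at 750 ng/mL, and trim63a, known as MuRF1, 82.2 against 116 CPM. The autophagy receptor gene calcoco1b stood at 1.3, 1.45 and 1.61 CPM at 1295 ng/mL against 11.4, 12.4 and 15.9 CPM at 750 ng/mL. The muscle calpain gene capn3b went the other way, with 65.5, 77.1 and 66.9 CPM against 33.99, 33.7 and 32.8 CPM.

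In the heart list 15 of 33 genes were higher and 9 were lower (median 0.24, which ran from -0.01 to 0.28 over scalings). Natriuretic peptides, which the heart makes under load, were higher for nppa and nppb. The gene nppa stood at 26.6, 34.8 and 27.7 CPM at 1295 ng/mL against 11.8, 12.4 and 11.02 CPM at 750 ng/mL (log2 fold change 1.34, SE 0.16, adjusted p = 9.77e-06, edgeR), and nppb, at a mean of 3.39 CPM at 1295 ng/mL against 0.850 CPM at 750 ng/mL, rose by 1.98 on the log2 scale. The light chain genes myl7 and cmlc1 of the heart rose by 0.46 and 0.75. Among the genes that fell were the pacemaker channel gene hcn4 (0.360 CPM at 1295 ng/mL, 1.497 CPM at 750 ng/mL), cacna1c and ryr2a. The gene cacna1c is also a channel of neurons, whose genes were mostly lower, so its fall cannot be placed in the heart. The ventricular myosin gene vmhc fell by 0.33. Endothelial genes were close to the median of all genes (14 of 43 higher, 5 lower, median 0.11, which ran from -0.12 to 0.16 over scalings). The transcription factor gene klf2b stood at 208, 269 and 213 CPM at 1295 ng/mL against 104, 93.8 and 69.8 CPM at 750 ng/mL, while its paralog klf2a was not called (-0.43).

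Red blood cell genes were higher in 21 of 35 cases and lower in 3 (median 0.62). Of 9 globin genes 8 were higher and none lower, with a sum of 2161, 1891 and 2313 CPM at 1295 ng/mL against 913.4, 864.5 and 1114 CPM at 750 ng/mL. The embryonic globin gene hbbe1.1 stood at 359, 312 and 431 CPM at 1295 ng/mL against 194, 133 and 158 CPM at 750 ng/mL. Globin genes are close copies of each other, so single values are uncertain. Of 9 haem synthesis enzymes 6 were higher, among them alas2, the first enzyme in red cells (log2 fold change 0.70). Membrane skeleton genes ank1b and sptb fell by 1.24 and 0.52.

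Stress-induced transcription factors were higher at the top dose. AP-1 is a dimer of Fos, Jun and ATF family proteins that is made within minutes of a stimulus. Of 14 AP-1 genes 10 were higher and 1 was lower (median 1.095), and their summed level was 1458, 2090 and 1525 CPM at 1295 ng/mL against 854.0, 745.2 and 738.4 CPM at 750 ng/mL. The gene jun stood at 181, 211 and 184 CPM at 1295 ng/mL against 77.9, 84.0 and 91.9 CPM at 750 ng/mL (log2 fold change 1.18, SE 0.11, adjusted p = 1.87e-06, edgeR). The repressor gene jdp2b stood at 88.5, 136 and 90.3 CPM against 36.5, 30.1 and 25.3 CPM, and the stress-induced gene atf3 at 54.3, 46.2 and 60.8 CPM against 22.4, 19.999 and 22.6 CPM. The groups did not overlap in any of these. The gene called lower, fosl1b, averaged 0.2502 CPM at 1295 ng/mL and 1.09 CPM at 750 ng/mL. Of 41 other immediate early genes 19 were higher and 7 were lower (median 0.35). With total counts alone 16 were higher and 13 lower (median 0.12). The nuclear receptor gene nr4a1 stood at 146, 195 and 156 CPM against 65.7, 66.3 and 59.18 CPM. The 3 genes of the npas4 family were lower, with npas4a at 10.03, 12.2 and 11.4 CPM against 28.7, 27.8 and 35.5 CPM. In mammals neurons induce Npas4 on calcium entry, which may not hold for every zebrafish copy.

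Inflammatory mediators were higher too. Of 22 cytokine and prostaglandin synthase genes 12 were higher and 1 was lower (median 0.51), with a sum of 376.6, 391.1 and 392.3 CPM at 1295 ng/mL against 185.1, 179.3 and 161.6 CPM at 750 ng/mL. With total counts alone 9 were higher and 2 lower (median 0.28). The prostaglandin synthase genes ptgs2a and ptgs2b held most of this sum in every library of both groups. The cyclooxygenase gene ptgs2a stood at 141, 152 and 148 CPM against 59.6, 58.4 and 51.8 CPM (log2 fold change 1.38, SE 0.09, adjusted p = 1.8e-07, edgeR), and ptgs2b at 117, 135 and 121 CPM against 44.1, 39.6 and 30.7 CPM. The neutrophil attractant gene cxcl8b.1 stood at 10.8, 3.36 and 11.62 CPM at 1295 ng/mL against 1.498, 1.62 and 2.98 CPM at 750 ng/mL, with replicate 2 lowest of its group again. The cytokine gene il1b rose by 1.31 on the log2 scale. Neutrophil markers were higher in 17 of 26 cases and lower in 2, with sums of 2552 to 2723 CPM at 1295 ng/mL against 2109 to 2209 CPM at 750 ng/mL, and the defining markers mpx and lyz rose by 0.61 and 0.43. Macrophage markers were higher in 16 of 33 cases and lower in 4, with sums of 4224 to 4818 CPM against 1937 to 1986 CPM, to which the widely expressed apoeb and apoc1 contribute most. No defining marker of either cell was at 0. The part of leukocyte number in the cytokine result was not tested. Of 22 interferon response genes 3 were lower and none was higher (median 0.12, which ran from -0.11 to 0.17 over scalings). Without replicate 3 at 750 ng/mL 3 of them were higher, and the lower calls of dhx58 and trim25 were lost under several alternatives. Of the lower ones stat2 stood at 16.0, 15.6 and 16.9 CPM against 35.5, 36.4 and 33.7 CPM.

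Matrix proteases that accompany tissue injury were among the larger rises. Of 42 proteases and inhibitors 19 were higher and 7 were lower (median 0.22, which ran from -0.01 to 0.27 over scalings). The gelatinase gene mmp9 stood at 137, 36.7 and 148 CPM at 1295 ng/mL against 24.8, 16.8 and 35.7 CPM at 750 ng/mL, so that replicate 2 at 1295 ng/mL nearly met the range at 750 ng/mL. The collagenase gene mmp13a averaged 55.3 CPM at 1295 ng/mL and 12.1 CPM at 750 ng/mL, with the same library lowest of its group. Of 40 genes of the p53 pathway and apoptosis 20 were higher and 7 were lower (median 0.29). Total counts alone gave 14 higher and 10 lower (median 0.05). The inflammatory caspase gene caspb stood at 192, 200 and 188 CPM at 1295 ng/mL against 62.4, 73.7 and 59.8 CPM at 750 ng/mL (log2 fold change 1.57, SE 0.12). The p53 targets cdkn1a and mdm2 rose by 1.24 and 0.76, while the pro-apoptotic genes bbc3 and bmf2 fell by 0.74 and 0.96.

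Genes for making, folding and degrading protein were higher by small and even amounts. Of 40 proteasome genes 39 were higher (median 0.61), with a sum of 4515, 4454 and 4413 CPM at 1295 ng/mL against 2815, 2768 and 3130 CPM at 750 ng/mL, and between 35 and 39 were higher under the scalings tried. The catalytic subunit gene psmb5 stood at 151, 160 and 145 CPM at 1295 ng/mL against 78.9, 81.7 and 77.0 CPM at 750 ng/mL (log2 fold change 0.94, SE 0.10, adjusted p = 5.3e-06, edgeR). The gene called lower, psme4a, encodes an activator that binds in place of the 19S cap and stood at 16.0, 15.7 and 14.8 CPM against 34.6, 44.2 and 45.1 CPM. Of 76 cytosolic ribosomal protein genes 74 were higher and 1 lower (median 0.46), and of 77 respiratory chain genes 70 were higher and 2 lower (median 0.46). With total counts alone 40 and 36 of these were higher, so their number rested on the scaling, although both medians stayed above 0. Complex I was higher in 33 of 34 genes, ATP synthase in 13 of 13 and complex IV in 10 of 15, where 2 were lower. Ribosome biogenesis genes were higher in 41 of 56 cases, and in 16 with total counts alone.

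The unfolded protein and Atf4 list was higher in 34 of 59 cases and lower in 6 (median 0.39). Scaling by total counts alone gave 24 higher and 12 lower (median 0.16). Of 19 chaperones and isomerases of the endoplasmic reticulum in the list 17 were higher (median 0.61). Here hspa5, the main chaperone of that compartment, averaged 435 CPM at 1295 ng/mL against 207 CPM at 750 ng/mL, and pdia6 stood at 72.9, 71.2 and 73.6 CPM against 41.6, 39.4 and 42.6 CPM. The death-linked target genes ddit3 and chac1 were not called (-0.20 and -0.18). Of 50 cytosolic chaperone genes 33 were higher and 4 were lower (median 0.34). Under total counts alone these numbers were 18 and 6 (median 0.11). The 3 inducible hsp70 genes summed to 96.65, 28.18 and 92.51 CPM at 1295 ng/mL against 13.42, 13.35 and 25.21 CPM at 750 ng/mL. Replicate 2 again lay close to the 750 ng/mL range, and these copies share reads. All 8 subunits of the T-complex, which folds actin and tubulin, were higher (median 0.35).

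Oxidative stress genes under Nrf2 were higher in 19 of 40 cases and lower in 5 (median 0.26, with 9 higher under total counts alone). The quinone reductase gene nqo1 stood at 214, 246 and 220 CPM at 1295 ng/mL against 127, 128 and 135 CPM at 750 ng/mL, whereas gclc, for glutathione synthesis, was not called (0.26). Lysosomal genes were higher in 27 of 59 cases and lower in 7 (median 0.25), but higher in 18 and lower in 21 with total counts alone (median 0.02). Of 9 cathepsins 7 were higher and 1 was lower, and ctsla stood at 1698, 1568 and 1563 CPM at 1295 ng/mL against 556, 615 and 698 CPM at 750 ng/mL. The proton pump did not follow, with 5 of 16 subunits higher and 3 lower (median -0.02). The cholesterol exporters of the lysosome, npc1 and npc2, rose by 0.99 and 0.73. Cholesterol synthesis genes were higher in 11 of 27 cases and lower in 3 (median 0.29), but in 4 with total counts alone and in 5 without replicate 1 at 1295 ng/mL. The uptake receptor gene ldlra stood at 50.5, 49.3 and 51.9 CPM against 81.2, 75.1 and 82.3 CPM.

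Genes of cell division were higher in 64 of 91 cases and lower in 2 (median 0.41). With total counts alone 29 were higher. The mitotic kinase gene plk1 stood at 95.6, 95.7 and 99.0 CPM at 1295 ng/mL against 64.6, 59.6 and 62.6 CPM at 750 ng/mL, and the histone chaperone gene chaf1b at 21.0, 25.9 and 19.8 CPM against 10.3, 11.08 and 9.62 CPM. The 2 genes called lower, brca2 and cenpf, fell by 0.53 and 0.47. The proliferation marker mki67 was not called (224 CPM at 1295 ng/mL, 240 CPM at 750 ng/mL).

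Of 51 genes for folate, serine and other amino acid enzymes 26 were higher and 9 were lower (median 0.34), and of 42 pigment and pteridine genes 20 were higher and 9 were lower (median 0.52). With total counts alone the first list gave 20 higher and 12 lower (median 0.105). The second gave 18 higher and 12 lower (median 0.286) under that scaling. All 4 enzymes of purine synthesis in the pigment list were higher (median 1.46), with paics at 306, 258 and 300 CPM at 1295 ng/mL against 66.4, 85.2 and 66.2 CPM at 750 ng/mL. The mitochondrial folate gene mthfd1l, which releases formate for purine synthesis, stood at 172, 148 and 178 CPM against 33.8, 40.7 and 32.3 CPM (log2 fold change 2.22, SE 0.12, adjusted p = 9.47e-08, edgeR). All 7 serine and mitochondrial folate enzymes were higher. In pigment cells, purines feed the guanine crystals of iridophores and the pteridines of xanthophores, and of 10 pteridine enzymes 5 were higher and 2 were lower. Among them gch2 stood at 98.0, 97.8 and 99.98 CPM at 1295 ng/mL against 14.7, 14.1 and 10.05 CPM at 750 ng/mL. Of 11 melanin genes 9 were higher and none was lower (median 0.88), with dct at 30.3, 30.5 and 32.3 CPM against 11.06, 11.3 and 10.17 CPM. The tyrosine catabolism genes hpda and tat fell by 1.33 and 1.08. Of 40 glycolysis genes 10 were higher and 12 lower (median -0.09), near the 23.4% and 28.7% of all tested genes. With total counts alone 3 of them were higher and 21 lower. The neuronal enolase and aldolase genes eno2 and aldocb fell by 0.96 and 0.999, while the muscle forms eno3 and aldoab rose by 0.42 and 0.46.

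Epidermal genes were higher in 44 of 59 cases and lower in 6 without displaced rows (median 0.58), and in 45 of 62 cases with them (median 0.57). All 6 claudins of the list, which seal cell junctions, were higher (median 1.06), with cldnb at 255, 255 and 257 CPM at 1295 ng/mL against 114, 113 and 119 CPM at 750 ng/mL (log2 fold change 1.15, SE 0.08, adjusted p = 1.88e-07, edgeR). The most abundant keratin gene of the periderm, krt4, stood at 16855, 22661 and 17557 CPM against 9677, 10299 and 9957 CPM. The basal stem cell factor tp63 rose by 1.21. The keratins krt92, krt93, krt95, krt97 and krt1-19d were lower. Ionocytes, the salt-transporting cells of the skin, were higher in 22 of 43 genes and lower in 10 (median 0.35), and higher in 17 and lower in 16 with total counts alone. Their fate gene foxi3a stood at 31.1, 38.2 and 33.4 CPM at 1295 ng/mL against 13.5, 16.3 and 16.4 CPM at 750 ng/mL. Among the sodium pump copies atp1a1a.2 rose by 0.97 and atp1a1a.4 fell by 1.33.

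In the skeleton and connective tissue the type I collagen genes were higher in 3 of 3 cases (median 0.68), with col1a1a at a mean of 5054 CPM at 1295 ng/mL against 2605 CPM at 750 ng/mL, while over all 54 collagens 15 were higher and 11 lower (median 0.02). Cartilage and bone genes showed 11 of 41 higher and 8 lower (median -0.03). Of 7 small leucine-rich proteoglycan genes among them 4 were higher and 3 were lower, with lum, dcn and fmoda up by 0.83, 0.74 and 0.79 and epyc, bgnb and chad down by 0.72, 0.63 and 0.51 on the log2 scale. The matrilin gene matn3a fell by 1.86. The medians of the collagen list and of the cartilage and bone list changed sign with the scaling (-0.22 to 0.07 and -0.26 to 0.02). Higher genes were 27.8% and 26.8% of these lists, against 23.4% of all tested genes. Lower genes were 20.4% and 19.5%, against 28.7% of all tested genes.

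Clock and hormone genes were lower more often than higher. Without displaced rows 19 of 37 clock genes were lower and 5 were higher (median -0.40), and with them 21 of 44 were lower and 7 higher (median -0.38). The repressor gene nfil3-6 stood at 14.0, 14.1 and 14.2 CPM at 1295 ng/mL against 58.5, 64.1 and 73.2 CPM at 750 ng/mL (log2 fold change -2.21, SE 0.25, adjusted p = 6.84e-06, edgeR). The period gene per2, which light induces, was not called (0.06). The hour of sampling is not stated by the labels. Of 55 hormone genes 25 were lower and 7 were higher (median -0.49), with 3 higher without replicate 1 at 1295 ng/mL and 2 with total counts alone. Among the lower ones were growth hormone gh1 (2.62 CPM at 1295 ng/mL, 9.66 CPM at 750 ng/mL), the melanin-concentrating hormone genes pmch and pmchl and the thyroid receptor gene thrb, at 11.08, 4.94 and 12.3 CPM against 36.1, 35.7 and 25.2 CPM. Glucocorticoid receptor targets were divided, with 11 of 39 higher and 11 lower without displaced rows (median -0.13) and 11 of 40 each way with them (median -0.15), and with 6 of 40 higher and 17 lower with total counts alone. Here fkbp5 and tsc22d3, both direct targets in mammals, were not called (-0.47 and -0.19). Hypoxia response genes were divided too, with 10 of 33 higher and 10 lower (median -0.11). With total counts alone 8 of them were higher and 15 lower (median -0.34). With TMM, both lists lay near the 23.4% higher and 28.7% lower of all tested genes.

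The step from 750 to 1295 ng/mL was also read against the step from 0 to 250 ng/mL, which uses 6 other libraries and so shares none with it. At 250 against 0 ng/mL 1302 genes were called higher (6.03%) and 967 lower (4.48%). Of the 1302 genes, 926 (71.1%) were called lower and 48 (3.69%) higher at 1295 against 750 ng/mL, with a median log2 fold change of -0.82. Of the 967 genes, 879 (90.9%) were called higher and 13 (1.34%) lower, with a median of 0.64. These compare with 28.7% lower, 23.4% higher and a median of -0.05 over all tested genes. Counted from the other side, the 926 genes were 15% of all genes lower at 1295 ng/mL, and the 879 were 17.4% of all genes higher. All 12 genes with the largest fall at the top step had been called higher at 250 ng/mL, and each averaged less at 1295 than at 0 ng/mL. Of the 12 with the largest rise 6 had been called lower at 250 ng/mL and 1, lepb, higher.

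**Figure D4:**
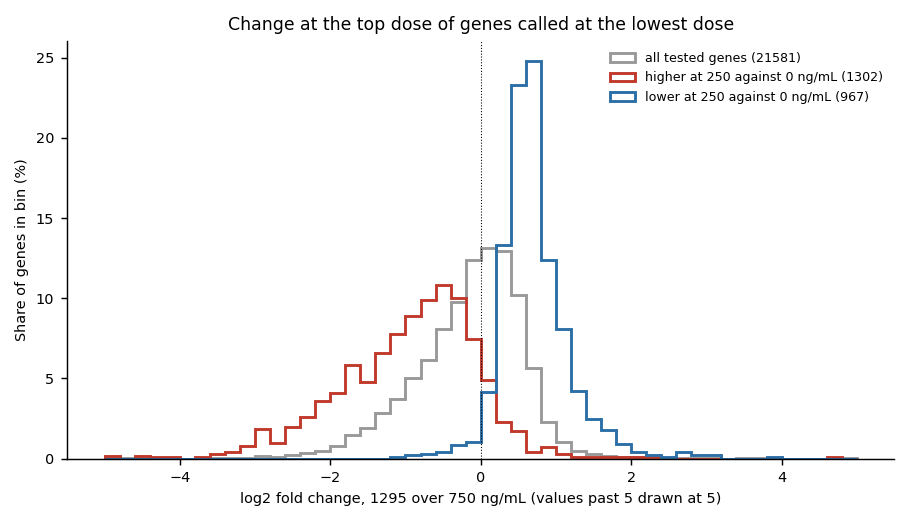
Distribution of the log2 fold change at 1295 against 750 ng/mL for all 21581 tested genes (grey), the 1302 genes higher at 250 against 0 ng/mL (red) and the 967 genes lower there (blue), as the share of each set per bin. The red outline lies mostly left of 0 (median -0.82) and the blue outline mostly right of it (median 0.64).

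The lists differed in how far this held. In the exocrine pancreas 28 of the 28 genes lower at the top step had been raised at 250 ng/mL, and in enterocytes 29 of 36. In the proteasome 34 of the 39 higher genes had been lowered at 250 ng/mL, as had 20 of the 34 of the unfolded protein and Atf4 list and 11 of the 21 of the red blood cell list. Of the 70 neuron and synapse genes lower at the top step, 5 had been raised at 250 ng/mL. For calcium channels this was 3 of 33 genes, and for photoreceptors 15 of 59. Over all genes, 15% of those lower at the top step had been raised, and 17.4% of those higher had been lowered. Photoreceptor genes thus lay above the 15% of all lower genes, and neuron and calcium channel genes below it. None of the AP-1 genes was lowered at 250 ng/mL, where 2 were higher, and none of the 76 ribosomal protein genes was called at 250 ng/mL in either direction.

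Levels over the 4 doses are given as a description, since the comparison shares its 750 ng/mL libraries with that of 750 against 0 ng/mL. Summed exocrine pancreas genes ran from 2440 to 4744 CPM at 0 ng/mL, 11100 to 16620 at 250, 11170 to 12740 at 750 and 2442 to 4926 at 1295 ng/mL, so that the ranges at 0 and 1295 ng/mL overlapped. Summed neuron and synapse genes ran from 5919 to 7188 CPM at 0, 6777 to 7114 at 250, 6933 to 7424 at 750 and 3302 to 3975 at 1295 ng/mL, where the top dose alone stood apart. Liver plasma protein genes ran from 17240 to 20750 CPM at 0, 13470 to 16580 at 250, 15210 to 16710 at 750 and 34460 to 38100 at 1295 ng/mL. Apolipoproteins held most of that sum at every dose. Proteasome genes ran from 3278 to 3541 CPM at 0, 2280 to 2820 at 250, 2768 to 3130 at 750 and 4413 to 4515 at 1295 ng/mL. For the neuron, liver and proteasome lists the libraries at 1295 ng/mL lay outside the range of the 9 others.

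**Figure D5:**
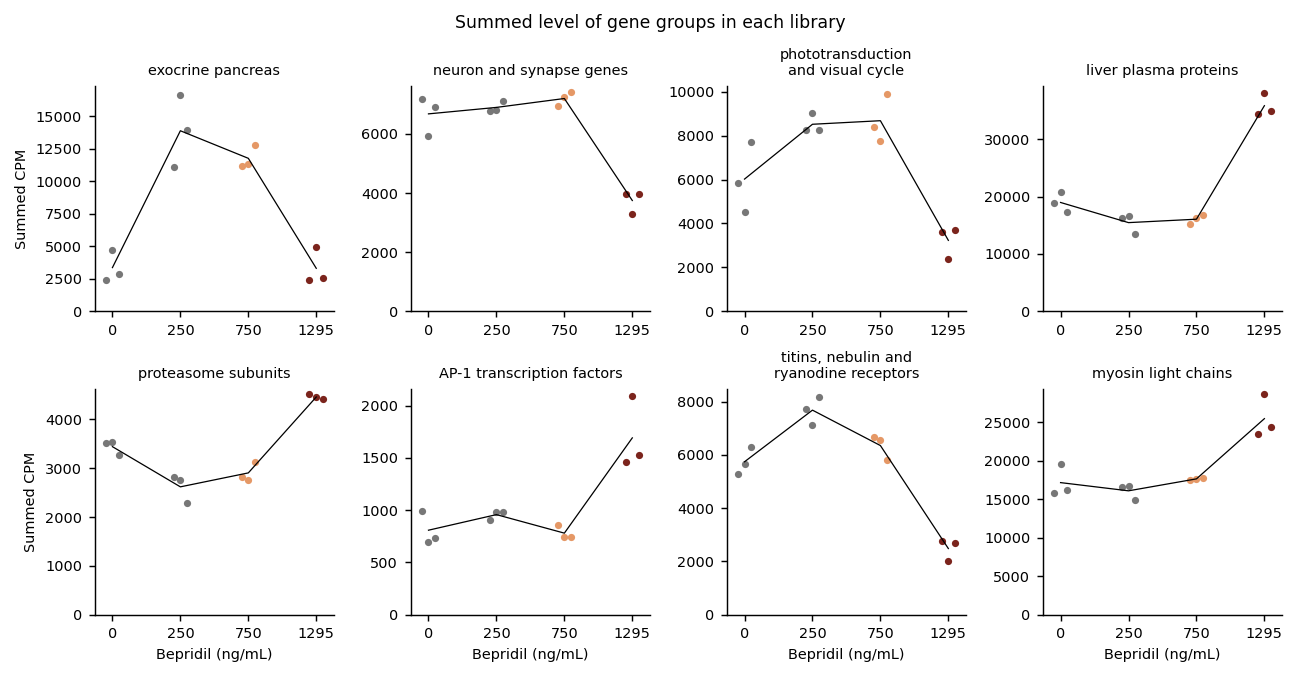
Summed CPM of 8 gene groups in each library (points) at 0, 250, 750 and 1295 ng/mL, with a line through the means of 3 libraries. Pancreas genes are high at 250 and 750 ng/mL, while the other groups leave the range of the lower doses at 1295 ng/mL, downward for neuron, photoreceptor and giant muscle genes (titins, nebulin and ryanodine receptors) and upward for liver, proteasome, AP-1 and myosin light chain genes.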

How the data were processed

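RNA was sequenced from 12 pools of 15 zebrafish larvae, 3 pools at each of 4 doses of bepridil, and the labels' protocols require an RNA integrity number of at least 7. The authors deposited counts of reads per gene, whole numbers with no normalization. The submitters' processing notes name the tools Trimmomatic, HISAT2 and HTSeq and the build GRCz11. Tool versions, gene annotation and strandedness of counting were not given in the sources used here, so reads of antisense, overlapping and near-identical genes may be shared. As deposited, 10 gene names had been turned into dates, and these names were not used.

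From the deposited counts, genes with enough counts for edgeR's filterByExpr were kept (21581), libraries were scaled by TMM, and edgeR 4.0.16 in R 4.3.3 fitted all 12 libraries with the dose group as the only term (8 residual degrees of freedom, quasi-likelihood test, Benjamini-Hochberg adjustment over all tested genes, called under 0.05, prior count 0.125). The fit was run on simulated data with changes planted in few genes. Those data held no broad change of the kind seen here, so they do not test the choice of scaling. CPM values use the TMM library sizes. Between 16103262 and 18284169 counts per library lie behind each value of the comparison. Over all genes the coefficient of variation between replicates was 12.1%. No 2 libraries of the same dose agreed within sampling noise. Technical spread could also give this, so it does not show that the pools are independent. Each library counted as 1 sample. Same-numbered libraries at 1295 and 750 ng/mL did not deviate together (correlations of 0.0438, -0.101 and -0.082), so numbers were not treated as pairs. The other doses were not checked for this.

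The comparison, the members and the 49 gene lists were chosen with earlier results of these data known. Genes were named by a rule: the 12 largest log2 fold changes in each direction among called genes with a mean of at least 1 CPM, a curated symbol and no overlap between the groups, the 10 largest changes in mean CPM in each direction, and the 4 members of each list with the smallest p. Other genes named, and the families within lists, were chosen after their values were seen. Of 2359 list entries 2174 were found by symbol and 79 by an older RefSeq symbol. Alternatives covered scaling, filtering, DESeq2 1.42.0, limma-voom (limma 3.58.1), the 6 libraries alone, a replicate block, each library left out and a stricter threshold, and, added after seeing the data, the displaced rows left out. Promoter motifs were planned and are not analysed here.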

Additional observations from a re-analysis of the deposited data

How the results depend on the processing

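The number of genes called (11239) ran from 9599 to 11452 when each library was left out in turn, from 11225 to 11430 under the other scalings, and was 11057 with DESeq2, 11061 with limma-voom, 10731 with the 6 libraries alone, 10546 with at least 10 counts in every library and 8148 at an adjusted p under 0.01. Leaving out the displaced rows, an alternative chosen after seeing the data, gave 11231. With the replicate number as a block 10852 genes were called. Same-numbered libraries at 1295 and 750 ng/mL did not deviate together, so the numbers were not treated as pairs. With total counts only, 2471 genes were higher in place of 5054 and 8959 lower in place of 6185, as that scaling moved the median of all genes to -0.288. At an adjusted p under 0.01, with fewer genes called at 250 against 0 ng/mL, 401 of 536 raised genes were lower at the top dose and 271 of 288 lowered genes were higher. The number of genes lowered at 250 ng/mL and higher at 1295 against 750 ng/mL, 879, ran from 667 to 1426 when each library was left out. The value of 1426 came without replicate 3 at 750 ng/mL, where more genes (1675) were called lower at 250 ng/mL. Under total counts only the number was 700 of 988 lowered genes, 70.9% in place of 90.9%. Genes raised at 250 ng/mL and then lower were 1008 of 1232 under that scaling, 81.8% in place of 71.1%. Of 216 genes named by the rule 195 had a value in all 17 alternatives, and 190 of these kept direction and call in each, as did 17 of the other 21 where they had a value. The gene cryba1a, whose log2 fold change was 7.03 with the displaced rows, reversed to -1.014 without replicate 3 at 1295 ng/mL, the library that holds them, and stood at 7.649 without replicate 2 at that dose. Calls were lost under some alternatives for lepb, mylpfa, myhz1.1, myhz2, vtg3, trim25, dhx58 and cryba1a. Genes at under 1 CPM, such as vtg3, rest on few counts per library.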

Other observations

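Of 30 complement, acute phase and antimicrobial genes 16 were higher and 7 were lower at 1295 against 750 ng/mL (median 0.45), and without the terminal complement genes 10 of 23 were higher and 7 were lower (median 0.18). The complement gene c3a.1, the central component of the cascade, stood at 998, 844 and 970 CPM at 1295 ng/mL against 296, 334 and 308 CPM at 750 ng/mL. The gene irg1l, an epidermal and macrophage gene induced in infection in zebrafish, stood at 40.4, 44.3 and 44.1 CPM against 10.05, 12.2 and 13.3 CPM. The groups lay far apart in both. The C-reactive protein gene crp3 was lower, at 13.6, 17.1 and 14.3 CPM at 1295 ng/mL against 28.1, 29.3 and 22.4 CPM at 750 ng/mL.

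Within the hypoxia list the genes went in both directions. The peptide gene adma, for adrenomedullin, stood at 23.5, 16.7 and 21.1 CPM at 1295 ng/mL against 7.03, 6.65 and 7.12 CPM at 750 ng/mL. The glucose transporter gene slc2a1a stood at 6.75, 6.19 and 6.49 CPM against 23.7, 19.3 and 15.7 CPM. The gene hif1aa, for a transcription factor subunit, fell by 0.97 on the log2 scale. Chemokine genes were called higher in 7 of 28 cases and lower in 3. Fatty acid oxidation genes were higher in 6 of 27 cases and lower in 2. Genes of muscle stem cells and repair were higher in 8 of 28 cases and lower in 7. The shares higher, 25%, 22.2% and 28.6%, lay near the 23.4% of all tested genes. Those lower were 10.7%, 7.41% and 25%, against 28.7% of all tested genes. The medians of these 3 lists changed sign with the scaling. The satellite cell gene pax7a fell by 0.75 and the muscle precursor gene myf5 rose by 0.64.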
